A study of Saccharomyces cerevisiae with 12 samples.

Results

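The *cyc8* single deletion mutant was compared with wild type (wt) by RNA sequencing, to describe which genes and processes were raised or lowered when *CYC8* was lost. The comparison uses 6 of the 12 libraries of the series, 3 biological replicates of *cyc8* and 3 of wt, and covers every named gene in both directions. The tested strain carries *CYC8* replaced by the KAN marker (*cyc8::KAN*) in BY4741, a haploid *MATa* laboratory strain of *Saccharomyces cerevisiae*, and came from a deletion collection as 1 strain, so a second change in that strain cannot be told apart from the deletion. The reference is BY4741 itself. Both strains share the deletions *his3Δ1*, *leu2Δ0*, *met15Δ0* and *ura3Δ0*, and both were grown in YPD, a rich medium with 2% glucose, to log phase at an OD600 of 0.6 to 0.8. RNA depleted of ribosomal RNA was sequenced with strand information. Between 14228301 and 17467516 reads per library fell on named genes in *cyc8*, against 14854146 to 15520064 in wt. The deposited counts were scaled to CPM, the level of a gene relative to its library total after scaling by the trimmed mean of M values. CPM compares a gene between libraries, not genes with one another, since it ignores their length.

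Cyc8 (also called Ssn6) and Tup1 form a co-repressor that does not bind DNA itself but is brought to promoters by sequence-specific repressors such as Mig1, Nrg1, Rox1, Sko1 and Rfx1. At those promoters it keeps nucleosomes in place, recruits histone deacetylases and contacts the transcription machinery. It is best known for holding off genes that yeast does not need while glucose and oxygen are plentiful, among them genes for other sugars, anaerobic cell wall proteins, flocculation and DNA damage repair.

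The targeted gene was checked first. *CYC8* had 7.64, 9.24 and 9.76 CPM in *cyc8*, against 206, 189 and 194 CPM in wt (log2 fold change -4.47 ± 0.14 (SE), adjusted p = 1.3e-06), so each library fits its label. Reads on *CYC8* were few but not absent in *cyc8* (127, 113 and 132 counts), and their origin was not tested. *TUP1*, the partner gene, had 457, 435 and 379.5 CPM in *cyc8*, against 489.5, 476 and 501 CPM in wt, which did not pass the limits (log2 fold change -0.21 ± 0.12, adjusted p = 0.19). *LEU2* and *MET17* (*MET15*) had 0 counts in all 6 libraries. The *MATalpha* pheromone gene *MF(ALPHA)1* stayed under 1 CPM in every library, so no library carried much RNA of the other mating type.

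A pair of libraries lay apart from their replicates. *cyc8* replicate 1 had 272 genes more than 2-fold from the mean of *cyc8* replicates 2 and 3, and wt replicate 3 had 187 genes more than 2-fold from the mean of wt replicates 1 and 2. The other 4 libraries had 34 to 75 such genes. Rank correlations over all tested genes were 0.972 and 0.973 between *cyc8* replicate 1 and its replicates and 0.997 between *cyc8* replicates 2 and 3, while wt replicate 3 gave 0.985 and 0.981 with wt replicates 1 and 2. No pair of replicates agreed within sampling noise (the closest pair, wt replicates 1 and 2, had a mean chi-square of 7.15 per gene), so all 6 were counted as separate samples. Results are therefore given with all 6 libraries, and without *cyc8* replicate 1 or wt replicate 3 where that library moved a group.

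Of the 6400 named genes, 5954 had enough counts to be tested. Calls of higher or lower needed a 2-fold change (1 on the log2 scale) together with an adjusted p no larger than 0.01 (edgeR's quasi-likelihood test, Benjamini-Hochberg adjustment over all tested genes). Called higher were 744 genes, 12.5% of those tested, and called lower were 114 genes, 1.91%. Without *cyc8* replicate 1 the calls were 825 higher (13.8% of 5975 tested) and 212 lower (3.55%). In these bulk samples, fewer cells that express a gene and less of its RNA per cell cannot be told apart. In all 6 fits that each left out 1 library, 536 genes were called higher and 83 lower. The called increases had a median log2 fold change of 1.98, and 205 of them reached 8-fold and 65 reached 32-fold. The called decreases had a median of -2.04, of which 29 reached 8-fold and 1 reached 32-fold. Of the genes called higher, 64 averaged under 1 CPM in wt, whereas 105 averaged over 100 CPM. The median log2 fold change of all tested genes was -0.03, and -0.38 when libraries were scaled by total counts alone, so every change below is relative to the bulk of genes. A value in brackets after a gene name is its log2 fold change of *cyc8* over wt. Scaling by total counts alone gave 577 genes higher and 367 lower. Under it the medians of the lists for galactose use, glycolysis, meiosis, cyclins, zinc, ergosterol, sphingolipids, amino acid synthesis, aryl-alcohol dehydrogenases and *COS* genes turned from above 0 to below 0.

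**Figure D1:**
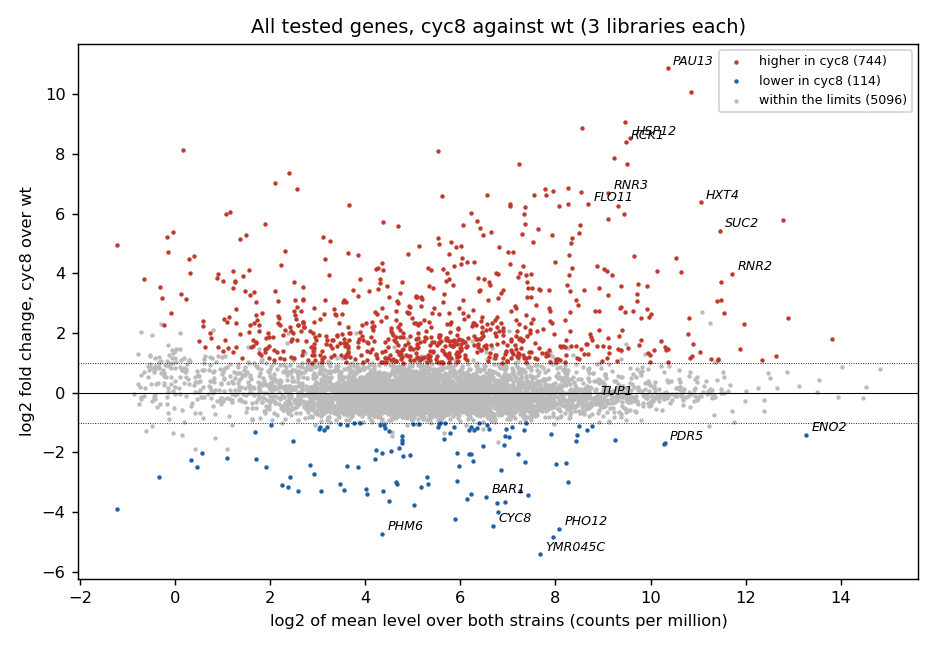
Log2 fold change of *cyc8* over wt (y axis) against the log2 of the mean level over both strains in CPM (x axis) for the 5954 tested genes. Each point is a gene, coloured by its call, with dotted lines at a 2-fold change. The 744 increases reach a log2 fold change of 10.87 at *PAU13*, whereas the 114 decreases end at -5.42.

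The largest increases called in every leave-one-out fit were in the seripauperin genes *PAU13*, *PAU24*, *PAU12*, *PAU1* and *PAU20*, the anaerobic mannoprotein gene *DAN1*, the stress genes *HSP12* and *HSP26*, the protein kinase gene *RCK1*, the mannitol dehydrogenase gene *DSF1*, the cell wall gene *PIR3* and the open reading frame *YLR012C*. *RCK1* was even across replicates, with 1383, 1476 and 1400.4 CPM in *cyc8*, against 4.45, 3.62 and 4.54 CPM in wt (log2 fold change 8.40 ± 0.17 (SE), adjusted p = 5.2e-07). *PAU1* had 0 counts in all wt libraries and 1.99, 2.05 and 2.66 CPM in *cyc8*, which is at least 12.8-fold higher against a floor of 3 counts per wt library. *YLR012C* had 373 counts over the *cyc8* libraries and 3 over the wt libraries, a ratio of 152 (95% counting interval 51.6 to 741). The largest decreases were in 8 retrotransposon genes, the phosphate genes *PHM6*, *PHO12* and *SPL2*, and *CYC8* itself.

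**Figure D2:**
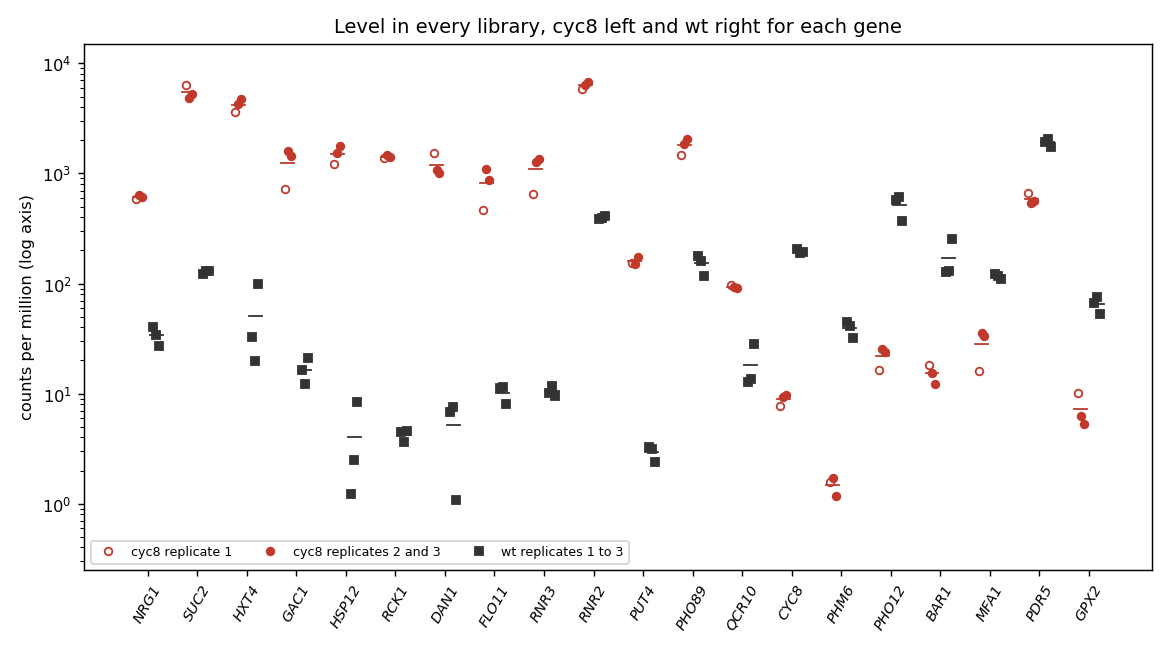
Level in CPM (log axis) of 20 genes in every library, *cyc8* (circles, replicate 1 open) left and wt (squares) right, with lines at the group means. The 2 groups do not overlap for any of these genes, as for 56.1% of all tested genes and for every called gene. Replicate 1 of *cyc8* lies closer to wt than its replicates for *GAC1*, *FLO11* and *RNR3*, and wt replicate 3 lies above the other wt libraries for *HXT4*, *HSP12* and *QCR10*.

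Genes of the repressors that recruit Cyc8 were themselves raised. Of 16 genes for DNA-binding repressors, 12 were called higher and 0 lower (median log2 fold change 1.78), with the same 12 in number without *cyc8* replicate 1. *NRG1*, a glucose-dependent repressor, had 589, 644 and 613 CPM in *cyc8*, against 40.6, 34.3 and 27.01 CPM in wt (log2 fold change 4.18 ± 0.18 (SE), adjusted p = 3.4e-06). *SUT1*, known for sterol uptake control, had 307, 311 and 294 CPM in *cyc8*, against 36.3, 32.5 and 28.9 CPM in wt, and *ROX1*, the repressor of hypoxic genes, had 307, 234 and 205 CPM in *cyc8*, against 51.9, 51.8 and 49.1 CPM in wt. Neither gene's groups overlapped, as in 56.1% of all tested genes (3339 of 5954). Their log2 fold changes were 3.22 and 2.29. *YAP6*, *CIN5*, *PHD1*, *MIG2*, *CUP9*, *NRG2*, *RFX1*, *SOK2* and *MIG3* were also called higher. *MIG1*, the main glucose repressor, had a log2 fold change of 1.15 with adjusted p = 0.017, and *SKO1* had -0.63. Neither was called. In contrast, 0 of 14 genes for histone deacetylases, Swi/Snf subunits and Gcn5 passed the limits, and their log2 fold changes ran between -0.64 and 0.22.

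Most genes for sucrose, maltose and isomaltose use were called higher, and most galactose genes were not. Of 12 tested sucrose, maltose and isomaltose genes, 10 were called higher and 0 lower (median log2 fold change 3.26), and 11 without *cyc8* replicate 1. *SUC2*, encoding invertase, had 6389, 4835 and 5228 CPM in *cyc8*, against 122, 129.9 and 129 CPM in wt (log2 fold change 5.43 ± 0.17 (SE), adjusted p = 1.3e-06). The isomaltase gene *IMA1* had 569, 362 and 387 CPM in *cyc8*, against 4.45, 3.91 and 4.99 CPM in wt, a log2 fold change of 6.62. *MAL12*, a maltase gene, had 292, 378 and 440.1 CPM in *cyc8*, against 3.58, 4.44 and 3.18 CPM in wt. Its near-identical copy *MAL32* had 57.6, 207 and 236 CPM in *cyc8*, against 3.87, 4.03 and 2.95 CPM in wt, with *cyc8* replicate 1 below its replicates, and the split of reads between this pair is uncertain. In all, 8 of the 14 genes on the sucrose, maltose and isomaltose list have over 10% of their sequence repeated elsewhere in the genome. Of 7 tested *GAL* genes, *GAL3* and *GAL4*, which encode the galactose sensor and the activator, were called higher (2.00 and 1.76). The enzyme and transporter genes *GAL1* (0.70), *GAL7* (-0.16), *GAL10* (-0.09) and *GAL2* (-0.07) did not pass the limits.

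All 14 tested hexose transporter genes were called higher, with log2 fold changes between 1.39 and 6.38 and a median of 3.25. Without *cyc8* replicate 1 the count was again 14, and without wt replicate 3 it was 12. *HXT4*, a high-affinity transporter gene, had 3648, 4259 and 4698 CPM in *cyc8*, against 32.5, 19.7 and 99.3 CPM in wt (log2 fold change 6.38 ± 0.65 (SE), adjusted p = 0.00025), where wt replicate 3 was the highest of wt and still far below *cyc8*. *HXT3*, the abundant low-affinity transporter gene, had 3677, 8469 and 7917 CPM in *cyc8*, against 1444, 1274 and 1302 CPM in wt, a log2 fold change of 2.32. *HXT6* and *HXT7*, near-identical copies whose reads may be shared, gave 6.33 and 5.17, and *HXT7* was called in only 3 of the 6 leave-one-out fits, with wt replicate 3 at 44.9 CPM against 5.51 and 2.16 CPM in the other wt libraries. *HXT17*, a further transporter gene of this family, had 410.2, 361 and 393 CPM in *cyc8*, against 10.3, 8.23 and 7.49 CPM in wt. Of the 16 genes on this list, 9 have over 10% of their sequence repeated elsewhere in the genome. The split of reads between such genes is uncertain, and *HXT14* and *HXT16* were not tested. Of 5 glucose sensing genes, *MTH1* and *RGT2* were called higher (2.85 and 1.34).

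The promoter of *HXT4* is shown because it holds a pair of Mig1-type motifs, the sequences by which Mig1 and its relatives bring the co-repressor to glucose-repressed genes. The 250 bases before and 50 bases after the annotated start (chrVIII:288762-289061, R64, minus strand, read 5′ to 3′ on the coding strand) were:
HXT4: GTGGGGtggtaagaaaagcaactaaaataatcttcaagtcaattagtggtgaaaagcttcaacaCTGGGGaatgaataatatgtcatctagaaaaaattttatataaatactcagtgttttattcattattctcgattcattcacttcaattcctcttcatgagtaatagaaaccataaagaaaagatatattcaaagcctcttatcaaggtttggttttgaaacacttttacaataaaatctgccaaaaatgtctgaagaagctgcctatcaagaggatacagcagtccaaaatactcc
Capitals mark GGGG preceded by C or G and then C or T, searched on either strand. A motif of this set was present in 20.2% of the promoters of genes called higher, 5.31% of those called lower (8% without the Ty retrotransposon genes) and 11.6% of all tested promoters of the same length.

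Gluconeogenesis and acetate use followed the same direction, in that 10 of 18 tested genes were called higher and 0 lower (median 1.51; 11 without *cyc8* replicate 1). *PCK1*, the key enzyme gene of gluconeogenesis, had 50.5, 154 and 175 CPM in *cyc8*, against 5.69, 4.55 and 6.24 CPM in wt (log2 fold change 4.52 ± 0.48 (SE), adjusted p = 0.00029), so *cyc8* replicate 1 lay between its replicates and wt. *ADR1*, an activator of genes for ethanol use, had 471, 618 and 640.3 CPM in *cyc8*, against 48.6, 43.5 and 71.9 CPM in wt. *JEN1*, the lactate and pyruvate transporter gene, had 85.8, 127 and 133 CPM in *cyc8*, against 18.6, 16.99 and 19.2 CPM in wt, and both were called with log2 fold changes of 3.40 and 2.66. *FBP1*, *MDH2* and *ACS1* did not pass the limits (0.96, 0.79 and 0.39), though *FBP1* did without *cyc8* replicate 1 (1.21). Of 19 genes for peroxisomal fatty acid oxidation, 3 were called higher and 2 lower. The 3 were the carnitine genes *CRC1* (3.42) and *YAT1* (2.90) and the acyl-CoA synthetase gene *FAA2* (1.26). The 2 were *PXA1* and *POX1* (-1.15 and -1.06), each called in 1 of the 6 leave-one-out fits, and 0 were lower without wt replicate 3. The 15.8% called higher is near the 12.5% of all tested genes.

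Most respiratory chain and ATP synthase genes were called higher, and fewer TCA cycle genes. Of 22 genes on the respiratory chain list, 20 were called higher and 0 lower, with a median log2 fold change of 1.55 (18 without *cyc8* replicate 1, 22 without wt replicate 3). The 20 include *HAP4*, which encodes a transcription activator and not a chain component. *QCR10*, a subunit gene of the cytochrome bc1 complex, had 96.9, 92.9 and 91.1 CPM in *cyc8*, against 12.8, 13.6 and 28.1 CPM in wt (log2 fold change 2.36 ± 0.29 (SE), adjusted p = 0.00066). *COX9*, a cytochrome c oxidase subunit gene, had 335, 378 and 335 CPM in *cyc8*, against 73.4, 67.2 and 96.9 CPM in wt, a log2 fold change of 2.14. The wt libraries were not alike here, since wt replicate 3 lay above the other wt libraries in most of these genes: the group's median in wt replicate 3 was 0.38 above the wt mean on the log2 scale. Of 15 TCA cycle genes, 6 were called higher and 0 lower, among them *LSC2* (1.94), *SDH2* (1.68) and *SDH4* (1.60), and 8 without wt replicate 3. The ATP synthase genes, a list added after the values were seen, gave 12 of 15 higher (median 1.35). *INH1*, the inhibitor of the ATP synthase, led them with 277, 239.8 and 232 CPM in *cyc8*, against 6.92, 4.14 and 26.3 CPM in wt.

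Storage and glycerol genes held some larger increases. Of 18 genes for trehalose and glycogen, 8 were called higher and 1 lower (median 1.24). *GAC1*, which directs a phosphatase to glycogen synthase, had 728, 1587 and 1454 CPM in *cyc8*, against 16.4, 12.3 and 20.9 CPM in wt (log2 fold change 6.25 ± 0.39 (SE), adjusted p = 1.8e-05). *GPH1*, glycogen phosphorylase, had 665, 533 and 568 CPM in *cyc8*, against 22.8, 20.7 and 70.4 CPM in wt, a log2 fold change of 3.95, so genes for making and for breaking down glycogen were both among those called. The one called lower was *PGM1*, the minor phosphoglucomutase, with 88.4, 54.8 and 56.5 CPM in *cyc8*, against 179.9, 178 and 183 CPM in wt. Of 11 glycerol genes, 8 were called higher and 0 lower. The synthesis genes *GPD1* and *GPP2* had log2 fold changes of 3.64 and 4.24, and the glycerol importer *STL1* 2.84. *DAK2*, a dihydroxyacetone kinase gene, had 36.9, 264 and 286 CPM in *cyc8*, against 4.69, 5.31 and 4.08 CPM in wt, in which *cyc8* replicate 1 was far below its replicates and still above wt.

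Glycolysis genes were mixed. Of 21 genes, 7 were called higher and 1 lower, and the list's median of 0.17 turned to -0.19 when libraries were scaled by total counts alone. *TDH1*, the minor glyceraldehyde-3-phosphate dehydrogenase gene, had 2202, 3331 and 3509 CPM in *cyc8*, against 125, 135 and 293 CPM in wt (log2 fold change 4.03 ± 0.39 (SE), adjusted p = 0.00019). *GLK1*, glucokinase, had a log2 fold change of 2.75, and *HXK1*, the hexokinase of cells short of glucose, had 1748, 1365 and 1498 CPM in *cyc8*, against 19.99, 12.2 and 161 CPM in wt. wt replicate 3 was far above the other wt libraries in *HXK1*, which was called in 1 of the 6 leave-one-out fits and not in that without *cyc8* replicate 1. *PDC6*, the minor pyruvate decarboxylase gene, gave 3.80. The enolase genes moved in opposite directions. *ENO1* was called higher with 3822, 5330.3 and 6235 CPM in *cyc8*, against 636, 693 and 1097 CPM in wt (log2 fold change 2.67 ± 0.27 (SE), adjusted p = 0.00025), and *ENO2*, the main glycolytic enolase, was called lower with 5996, 4839.6 and 5393 CPM in *cyc8*, against 13268, 14615 and 15211 CPM in wt (log2 fold change -1.41 ± 0.14 (SE), adjusted p = 0.00019). Part of the sequence of each (38.8%) is repeated elsewhere in the genome. *GPM1* (-0.99; called lower without *cyc8* replicate 1, -1.06), *PGK1* (-0.61), *ADH1* (-0.60) and *CDC19* (0.18) did not pass the limits. Of 17 genes for alcohol and aldehyde dehydrogenases, 7 were called higher, led by the mitochondrial aldehyde dehydrogenase gene *ALD4* (4.07), *GRE2* (2.84) and the butanediol dehydrogenase genes *BDH2* and *BDH1* (2.34 and 1.91). A further set of 4 mannitol and sorbitol dehydrogenase genes, noted after the values were seen, was called higher throughout. In it *DSF1* had 274, 297 and 328 CPM in *cyc8*, against 1.82, 1.05 and 1.53 CPM in wt, and *SOR1* and *SOR2* gave 3.14 and 3.54, although these genes share most of their sequence in pairs.

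**Figure D3:**
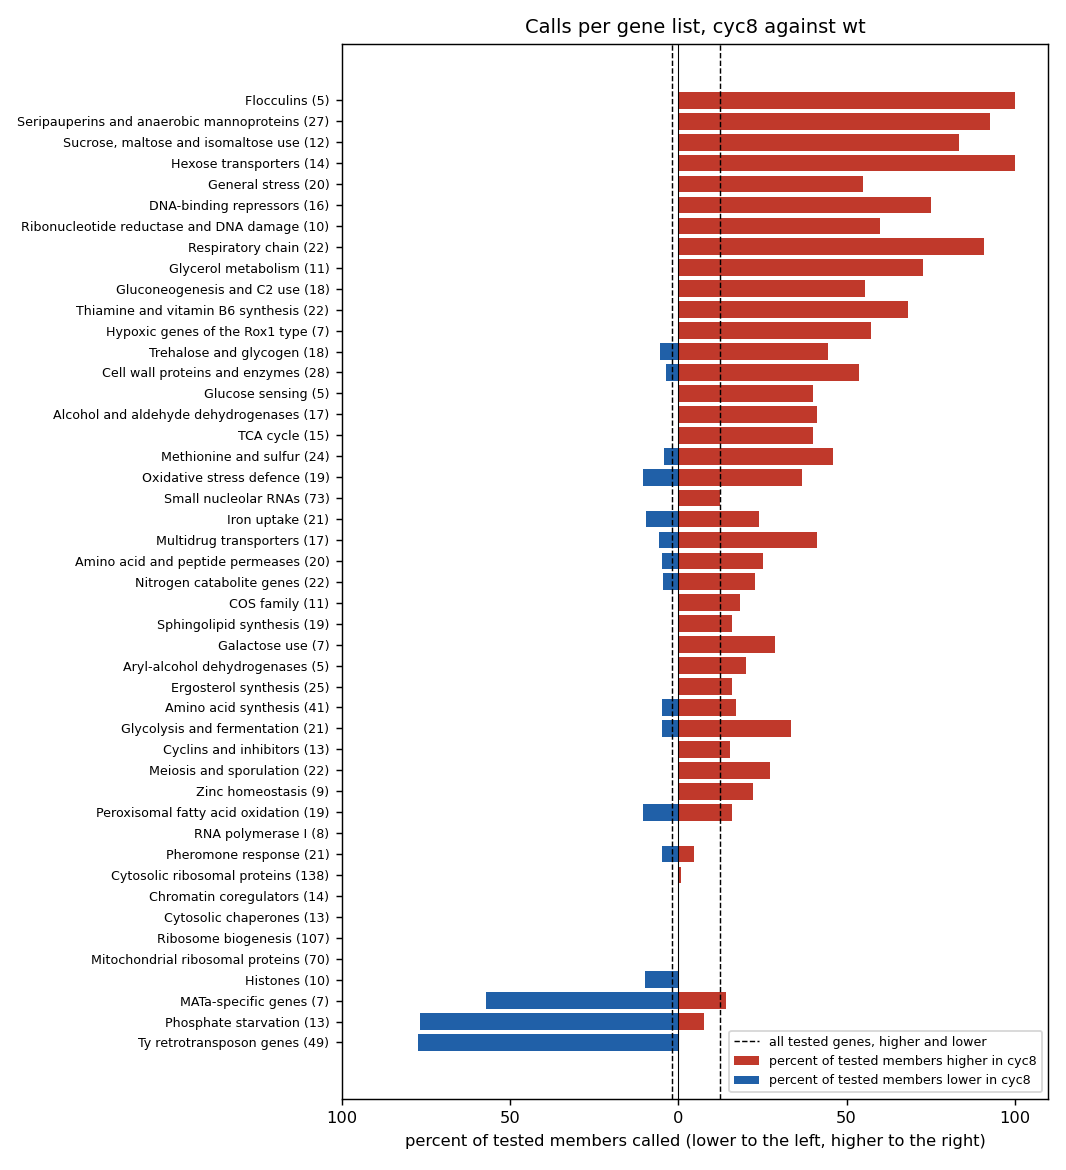
Percent of tested members called lower (blue, to the left) and higher (red, to the right) for the lists with at least 5 tested members, ordered by their median log2 fold change, with the number tested in brackets. Dashed lines mark all tested genes, 12.5% higher and 1.91% lower. All tested hexose transporter and flocculin genes were called higher, and 38 of 49 Ty genes, 10 of 13 phosphate genes and 4 of 7 *MATa*-specific genes were called lower.

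The seripauperins and anaerobic mannoproteins, small serine-rich cell wall proteins that yeast makes without oxygen, held the largest increases of single genes. Of 30 genes, 27 were tested and 25 called higher, with a median log2 fold change of 5.01 (4.94 with *PAU1* at its bound, and 25 again without *cyc8* replicate 1). *DAN1* had 1518, 1074 and 1006 CPM in *cyc8*, against 6.74, 7.59 and 1.08 CPM in wt (log2 fold change 7.87 ± 0.69 (SE), adjusted p = 0.00012). *PAU13* had 4319, 1713 and 1859 CPM in *cyc8*, against 1.58, 2.28 and 0.34 CPM in wt (log2 fold change 10.87 ± 0.76 (SE), adjusted p = 3.6e-05). In both, *cyc8* replicate 1 was the highest library and wt replicate 3 the lowest. *PAU5* was uneven, with 2002, 133 and 123 CPM in *cyc8*, against 1.7, 2.16 and 0.908 CPM in wt, and was called in 3 of the 6 leave-one-out fits. *PAU6* and *PAU23* did not pass the limits (0.67 and 0.21). Over 10% of the sequence of 27 of the 30 genes is repeated elsewhere in the genome, so the split of reads between single *PAU* genes is uncertain.

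Promoters of *DAN1* and *PAU13* are shown because nearly the whole family carries the AR1 motif, to which anaerobic activation of these genes has been assigned. The windows, 250 bases before to 50 after the annotated start of *DAN1* (chrX:709658-709957, minus strand) and of *PAU13* (chrVIII:12236-12535, minus strand, both R64), read 5′ to 3′:
DAN1: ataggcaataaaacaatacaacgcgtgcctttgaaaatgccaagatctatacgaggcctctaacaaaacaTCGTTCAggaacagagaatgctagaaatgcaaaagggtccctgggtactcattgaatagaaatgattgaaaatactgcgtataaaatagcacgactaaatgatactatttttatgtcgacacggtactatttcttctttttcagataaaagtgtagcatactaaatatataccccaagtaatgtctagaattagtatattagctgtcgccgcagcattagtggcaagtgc
PAU13: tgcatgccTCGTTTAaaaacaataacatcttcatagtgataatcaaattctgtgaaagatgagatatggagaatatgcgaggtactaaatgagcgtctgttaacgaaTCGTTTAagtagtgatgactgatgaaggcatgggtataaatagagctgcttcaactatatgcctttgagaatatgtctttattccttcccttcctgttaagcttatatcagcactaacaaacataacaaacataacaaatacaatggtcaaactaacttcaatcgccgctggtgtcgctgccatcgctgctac
Capitals mark TCGTTCA or TCGTTTA on either strand. An AR1 motif was present in 85.2% of the 27 tested promoters of this list, and at least 2 in 55.6%, against 14.1% of the promoters of genes called higher, 4.42% of those called lower (6.67% without the Ty genes) and 8.91% of all tested promoters. Members share sequence with one another, so their promoters are not independent.

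Hypoxic genes of the Rox1 type gave 4 of 7 higher and 0 lower (5 without *cyc8* replicate 1). *ANB1*, the hypoxic form of translation factor eIF5A, had 442, 198 and 220.3 CPM in *cyc8*, against 20.3, 23.1 and 10.3 CPM in wt (fold change 16.05, adjusted p = 0.0003). *HEM13*, a haem synthesis gene, had 1449, 1475 and 1616 CPM in *cyc8*, against 325, 313 and 158 CPM in wt, and *CYC7*, hypoxic cytochrome c, gave a log2 fold change of 4.65. *OLE1*, the fatty acid desaturase gene, had 729.7, 4513 and 5357 CPM in *cyc8*, against 2057, 2180.1 and 992 CPM in wt, so the groups overlapped only through *cyc8* replicate 1. It was not called with all libraries (1.02, adjusted p = 0.23) but was called without that library (1.48, adjusted p = 0.0074). The *ANB1* promoter (chrX:525332-525631, R64, minus strand) is shown because its Rox1 sites are a textbook case of repression through this complex:
ANB1: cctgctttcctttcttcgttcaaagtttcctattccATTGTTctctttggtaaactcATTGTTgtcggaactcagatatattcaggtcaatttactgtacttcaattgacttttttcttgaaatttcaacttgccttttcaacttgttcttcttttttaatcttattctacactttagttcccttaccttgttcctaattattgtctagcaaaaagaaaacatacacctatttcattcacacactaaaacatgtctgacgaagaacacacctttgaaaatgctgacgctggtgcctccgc
Capitals mark the Rox1 core ATTGTT on either strand, which 6 of the 7 promoters of the list held. It occurred in 34.7% of the promoters of genes called higher, 56.6% of those called lower and 34.9% of all tested promoters. Without the Ty genes, whose promoters are copies of one another, the share among genes called lower was 36.0%.

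All 5 flocculin genes, which encode the adhesins of cell clumping, were called higher (median 5.37). *FLO11*, needed for surface adhesion and invasive growth, had 462, 1103 and 869 CPM in *cyc8*, against 11.1, 11.6 and 8.0 CPM in wt (log2 fold change 6.31 ± 0.38 (SE), adjusted p = 1.7e-05). *FLO1* had 633, 1310.0 and 1281 CPM in *cyc8*, against 19.8, 22.2 and 15.1 CPM in wt, and for both genes *cyc8* replicate 1 lay below its replicates and far above wt. Parts of each *FLO* gene are repeated in the genome. Among 28 other genes for cell wall proteins and enzymes, 15 were called higher and 1 lower. *CWP1*, a mannoprotein gene, had 2404, 3146 and 3016 CPM in *cyc8*, against 65.5, 50.6 and 258 CPM in wt (log2 fold change 4.52 ± 0.65 (SE), adjusted p = 0.0014), and *PIR3* had 140.0, 835 and 851 CPM in *cyc8*, against 5.69, 5.9 and 4.26 CPM in wt. The protease gene *YPS6* gave 3.73 and *SPI1* gave 4.37, whereas the glucanosyltransferase gene *GAS2*, best known from sporulation, was the one called lower (-1.56, called in 2 of the 6 leave-one-out fits).

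Most of the listed DNA damage response genes were called higher, in cultures for which the labels name no damaging agent. Of 10 genes, 6 were called higher and 0 lower (7 without *cyc8* replicate 1). *RNR3*, the damage-inducible large subunit of ribonucleotide reductase, had 656, 1275 and 1346 CPM in *cyc8*, against 10.1, 11.8 and 9.59 CPM in wt (log2 fold change 6.70 ± 0.34 (SE), adjusted p = 6.9e-06). *RNR2*, the small subunit, was already expressed in wt and had 5866, 6335 and 6809.7 CPM in *cyc8*, against 384, 395 and 415 CPM in wt, a log2 fold change of 3.99 ± 0.13. *RNR4* (3.08), the inhibitor gene *HUG1* (5.30) and the recombination gene *RAD54* (1.61) were among the others called. *DUN1*, *SML1* and *DIN7* did not pass the limits (0.43, 0.40 and -0.52), nor did *RNR1* (1.29, adjusted p = 0.013).

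General stress genes gave 11 of 20 higher and 0 lower (12 without *cyc8* replicate 1). *HSP12*, which stabilises membranes, had 1218, 1538 and 1775 CPM in *cyc8*, against 1.23, 2.51 and 8.45 CPM in wt (log2 fold change 8.53 ± 0.72 (SE), adjusted p = 9.7e-05). *HSP26*, a small heat shock chaperone, had 1152, 1464 and 1709.8 CPM in *cyc8*, against 3.46, 4.32 and 13.4 CPM in wt, and in both genes wt replicate 3 was the highest wt library but far below every *cyc8* library. *XBP1*, a stress-induced repressor, gave 4.73. *MSN4*, an activator of such genes that is on no list, had 510.4, 591 and 569.6 CPM in *cyc8*, against 41.1, 29.4 and 65.4 CPM in wt, a log2 fold change of 3.62. The rise did not extend to a separate list of chaperone genes. Of its 13 cytosolic and mitochondrial chaperone genes, 0 were called, and without *cyc8* replicate 1 2 were called lower. *SSA2*, a constitutive Hsp70 gene, had 2290.2, 1069.7 and 1194 CPM in *cyc8*, against 2804, 3232 and 3887 CPM in wt, and was lower only without that library (-1.56, adjusted p = 0.00028). *HSP82* had 228, 66.7 and 72.9 CPM in *cyc8*, against 94.5, 103 and 309 CPM in wt, with *cyc8* replicate 1 above and wt replicate 3 far above their replicates. All 4 genes of the *HSP31* family, a list added after the values were seen, were called higher, and *HSP31* itself had 450.2, 813 and 881 CPM in *cyc8*, against 13.7, 14.4 and 15.2 CPM in wt. In 3 of the 4, over 10% of the sequence is repeated elsewhere in the genome, so the split of their reads is uncertain. *SNO4*, a member, had only 3 counts over the wt libraries.

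The *HSP12* promoter (chrVI:107006-107305, R64, plus strand) is shown for its pair of stress elements, the sequence bound by Msn2 and Msn4:
HSP12: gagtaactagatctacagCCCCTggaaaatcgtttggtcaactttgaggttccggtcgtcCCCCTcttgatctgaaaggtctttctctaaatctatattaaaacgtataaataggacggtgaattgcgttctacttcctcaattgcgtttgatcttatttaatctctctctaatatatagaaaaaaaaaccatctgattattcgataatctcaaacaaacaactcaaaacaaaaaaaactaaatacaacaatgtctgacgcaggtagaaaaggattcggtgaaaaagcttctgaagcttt
Capitals mark AGGGG on either strand. It occurred in 32.2% of the promoters of genes called higher, 10.6% of those called lower and 21.7% of all tested promoters. At least 2 copies occurred in 6.37%, 0.885% and 2.98% of these. Without the Ty genes, 16.0% of the promoters of genes called lower held the motif.

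Oxidative defence genes moved both ways, with 7 of 19 higher and 2 lower. *OYE3*, an NADPH dehydrogenase gene, had 65.8, 84.1 and 75.7 CPM in *cyc8*, against 4.16, 5.02 and 3.23 CPM in wt (log2 fold change 4.18 ± 0.19 (SE), adjusted p = 4.3e-06), and the peroxidase genes *PRX1*, *CCP1* and *TSA2* gave 2.84, 2.08 and 1.85. In the other direction, *GPX2*, a glutathione peroxidase gene, had 10.1, 6.3 and 5.25 CPM in *cyc8*, against 67.1, 75.01 and 52.6 CPM in wt (log2 fold change -3.16 ± 0.26 (SE), adjusted p = 8.2e-05), and *GSH1*, the entry enzyme of glutathione synthesis, had 70.2, 70.4 and 64.2 CPM in *cyc8*, against 233, 204 and 142 CPM in wt. The sodium pump gene *ENA1* had 424, 650.3 and 731 CPM in *cyc8*, against 26.4, 25.9 and 22.2 CPM in wt, a log2 fold change of 4.60, while its neighbours *ENA2* and *ENA5*, which share most of its sequence, gave -0.37 and -0.05.

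Nitrogen and amino acid uptake genes held a few large increases. Of 20 permease genes, 5 were called higher and 1 lower (25% and 5%, against 12.5% and 1.91% of all tested genes). *PUT4*, the proline permease gene, had 154, 152 and 174 CPM in *cyc8*, against 3.28, 3.15 and 2.38 CPM in wt (log2 fold change 5.76 ± 0.17 (SE), adjusted p = 1.3e-06), and *GAP1*, the general amino acid permease gene, had 193, 153 and 157 CPM in *cyc8*, against 12.5, 11.4 and 12.2 CPM in wt, a log2 fold change of 3.80. Both are known to be kept low on rich nitrogen. *DIP5*, the glutamate and aspartate permease gene, was the one called lower, with 19.8, 29.6 and 22.7 CPM in *cyc8*, against 84.5, 86.6 and 124 CPM in wt. Of 22 nitrogen catabolite genes, 5 were called higher and 1 lower (22.7% and 4.5%). The 5 included the glutamate dehydrogenase gene *GDH1* (2.84) and the activator *GAT1* (2.07), while the ammonium permease gene *MEP3* was lower (-1.01). Amino acid synthesis gave 7 of 41 higher and 2 lower, against 12.5% and 1.91% of all genes, and its median of 0.18 likewise turned to -0.17 when libraries were scaled by total counts alone. In it the arginine genes *ARG5,6* and *ARG3* led the increases (2.12 and 2.01), and *LYS9* (-1.80) and *LEU9* (-1.23) were the decreases. *HIS3*, partly deleted in both strains, had 109.7, 174 and 156 CPM in *cyc8*, against 58.4, 59.4 and 77.9 CPM in wt.

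Among sulfur and vitamin genes, increases outnumbered decreases. Of 24 methionine and sulfur genes, 11 were called higher and 1 lower (median 0.78), in strains that lack *MET17*. *MET28*, a cofactor of the activator of this pathway, had 18.1, 23.6 and 21.8 CPM in *cyc8*, against 2.58, 2.28 and 2.55 CPM in wt (log2 fold change 3.09 ± 0.16 (SE), adjusted p = 7.5e-06), the sulfate permease gene *SUL2* gave 2.22 and the ATP sulfurylase gene *MET3* gave 2.31. *SAM2*, an S-adenosylmethionine synthetase gene, was lower (-1.22). Of 22 genes for thiamine and vitamin B6, 15 were called higher and 0 lower (median 1.48; 15 again without *cyc8* replicate 1). *THI4*, which makes the thiazole part of thiamine, had 31.4, 40.3 and 44.9 CPM in *cyc8*, against 2.7, 1.63 and 1.36 CPM in wt (log2 fold change 4.35 ± 0.26 (SE), adjusted p = 1.5e-05), and its regulator *THI2* had 35.7, 44.5 and 41.6 CPM in *cyc8*, against 3.4, 2.74 and 4.03 CPM in wt. *THI5* and *THI12* are near-identical copies and gave 4.09 and 3.91. Biotin genes, listed after the values were seen, gave 4 of 6 higher, led by the regulator *VHR1* (2.32) and *BIO2* (2.09).

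Metal and lipid genes were mixed. Of 21 iron uptake genes, 5 were called higher and 2 lower (23.8% and 9.5%, against 12.5% and 1.91% of all tested genes). Without wt replicate 3 these counts were 3 and 4. *FRE4*, a ferric reductase gene, had 952, 973 and 1027 CPM in *cyc8*, against 65.997, 74.9 and 25.9 CPM in wt (log2 fold change 4.15 ± 0.39 (SE), adjusted p = 0.00016), and the permease gene *FTR1* gave 1.56. *FRE1*, the main surface reductase, had 137, 55.1 and 56.4 CPM in *cyc8*, against 495, 556 and 245 CPM in wt, and the enterobactin transporter gene *ENB1* had 69.1, 51.2 and 51.1 CPM in *cyc8*, against 271, 279 and 164 CPM in wt. Both were called lower, *FRE1* in 2 of the 6 leave-one-out fits. wt replicate 3 lay below the other wt libraries in all 4 of these genes. Of 9 zinc genes, *IZH3* (2.11) and *ZPS1* (3.44) were called higher, a share of 22.2%. The call of *ZPS1* rested on *cyc8* replicates 2 and 3, with 26.5, 211 and 230.2 CPM in *cyc8*, against 16.3, 17.1 and 9.65 CPM in wt. Without wt replicate 3 the zinc list gave 1 higher and 2 lower, and its median of 0.06 became -0.16. The shares called higher in ergosterol and sphingolipid synthesis, 16.0% and 15.8%, were near the 12.5% of all tested genes. Ergosterol synthesis gave 4 of 25 higher and 0 lower, including the activator gene *UPC2* (2.06) and *ERG25* (1.74). Sphingolipid synthesis gave 3 of 19 higher, the hydroxylase genes *SUR2* and *SCS7* (1.95 and 1.55) and *SUR1* (1.33). *CHO2*, a methyltransferase of phosphatidylcholine synthesis, had 97.6, 30.3 and 34.7 CPM in *cyc8*, against 234, 281 and 305 CPM in wt. It was the one member of a phospholipid list, made after the values were seen, that was called lower (-2.33; -3.09 without *cyc8* replicate 1), and *INO1* the one called higher (2.08). Of 17 multidrug transporter genes, 7 were called higher and 1 lower. *PDR15* (3.94) and the polyamine exporters *TPO2* and *TPO1* (3.49 and 2.93) rose, whereas *PDR5*, the main drug efflux pump, had 665, 540.3 and 561 CPM in *cyc8*, against 1945, 2077 and 1727 CPM in wt (log2 fold change -1.70 ± 0.14 (SE), adjusted p = 8.2e-05).

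Most genes that mark the *MATa* cell type were lowered. Of 7 genes, 4 were called lower and 1 higher, with all 6 libraries and without *cyc8* replicate 1. *BAR1*, the protease that destroys alpha-factor, had 18.1, 15.3 and 12.3 CPM in *cyc8*, against 128, 131 and 256 CPM in wt (log2 fold change -3.49 ± 0.32 (SE), adjusted p = 0.00014). *MFA1*, an a-factor gene, had 16.1, 35.3 and 33.4 CPM in *cyc8*, against 121, 116 and 111 CPM in wt, with *cyc8* replicate 1 the lowest. *STE2*, the alpha-factor receptor gene, had 176, 166 and 172 CPM in *cyc8*, against 491, 562 and 512 CPM in wt, and the a-factor exporter gene *STE6* had 134, 125 and 140.3 CPM in *cyc8*, against 329, 354 and 365 CPM in wt. *MFA2*, the other a-factor gene, did not pass the limits (0.05), nor did *AGA2* (-0.47). *ASG7* was the one called higher (1.14). *STE3*, the receptor gene of the opposite mating type, was also lower, at 0.662, 0.409 and 0.665 CPM in *cyc8*, against 1.99, 1.87 and 3.29 CPM in wt, and the other tested *MATalpha* genes *SAG1* and *MF(ALPHA)2* did not pass the limits. Of 21 pheromone response genes, *PRM7* was higher (1.42) and *FUS2* lower (-1.07). Each is 4.8% of the list, against 12.5% and 1.91% of all tested genes. *SST2*, which damps the pheromone signal and is on no list, had 15.3, 23.7 and 18.6 CPM in *cyc8*, against 89.9, 101 and 125 CPM in wt (log2 fold change -2.46 ± 0.20 (SE), adjusted p = 7.6e-05).

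Meiosis and sporulation genes gave 6 of 22 higher and 0 lower. *IME1*, the master activator of meiosis, had 55.2, 48.2 and 41.7 CPM in *cyc8*, against 3.87, 3.79 and 6.52 CPM in wt (log2 fold change 3.35 ± 0.23 (SE), adjusted p = 3.6e-05), and the spore wall genes *DIT1*, *DIT2* and *SPS100* gave 5.65, 3.48 and 3.72. *DIT1* had 117, 427 and 415 CPM in *cyc8*, against 6.33, 6.3 and 6.41 CPM in wt, so *cyc8* replicate 1 lay between its replicates and wt. *REC8* and *SPS4* were the others called higher. The listed meiotic genes *ZIP1* (-0.67), *RED1* (-0.54) and *SPO13* (-0.44) did not pass the limits. Among 13 cyclin and inhibitor genes, *CLN3*, the cyclin that starts the cell cycle, had 445, 726 and 661 CPM in *cyc8*, against 228, 200.2 and 167 CPM in wt, and with *PCL1* was called higher (1.62 and 1.02), a share of 15.4% beside 12.5% of all tested genes. None of the 13 was called lower with all 6 libraries, and without *cyc8* replicate 1 the 3 called lower were *CLB2* (-1.94), *CLB1* (-1.25) and *PCL9* (-1.08). Of 10 histone genes, *HTA2* was called lower (-1.02) and all 10 had negative log2 fold changes.

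Phosphate genes were lowered as a group. Of 13 genes of the phosphate starvation response, 10 were called lower and 1 higher (median -1.75; 11 lower without *cyc8* replicate 1). *PHM6* had 1.56, 1.72 and 1.18 CPM in *cyc8*, against 45.01, 41.5 and 31.9 CPM in wt (log2 fold change -4.72 ± 0.21 (SE), adjusted p = 3.7e-06), and *SPL2*, a regulator of low-affinity phosphate uptake, had 3.61, 4.74 and 5.03 CPM in *cyc8*, against 55.3, 60.6 and 66.3 CPM in wt (log2 fold change -3.77 ± 0.16 (SE), adjusted p = 3.3e-06). *PHO5*, the secreted acid phosphatase gene, had 46.8, 78.9 and 79.2 CPM in *cyc8*, against 602, 638 and 395 CPM in wt, and *PHO12*, whose sequence is nearly shared with *PHO11*, had 16.3, 25.5 and 23.9 CPM in *cyc8*, against 571, 606 and 370.0 CPM in wt. For each of these the *cyc8* libraries lay well below all wt libraries. *PHO84*, the main high-affinity transporter gene, had 467, 629 and 694 CPM in *cyc8*, against 1974, 2186 and 1623 CPM in wt, and the polyphosphate synthesis genes *VTC3*, *VTC4* and *VTC1* gave -2.35, -1.26 and -1.10. Against the group, *PHO89*, the sodium-coupled phosphate transporter gene, had 1458, 1868 and 2072 CPM in *cyc8*, against 179, 161 and 116 CPM in wt (log2 fold change 3.56 ± 0.22 (SE), adjusted p = 1.8e-05).

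The *SPL2* promoter (chrVIII:375051-375350, R64, minus strand) is shown because it carries the core of the site of Pho4, the activator of this group, 3 times:
SPL2: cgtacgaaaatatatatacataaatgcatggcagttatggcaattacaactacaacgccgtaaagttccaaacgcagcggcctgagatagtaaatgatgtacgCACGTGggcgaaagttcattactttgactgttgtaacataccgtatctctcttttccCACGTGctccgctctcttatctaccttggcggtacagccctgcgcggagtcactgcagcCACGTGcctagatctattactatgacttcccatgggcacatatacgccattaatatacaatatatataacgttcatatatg
Capitals mark CACGTG, which Cbf1 also binds. It occurred in 23.1% of the 13 promoters of the list, with at least 2 copies in 15.4%, and in 3.54% of the promoters of genes called lower, 3.12% of those called higher and 2.93% of all tested promoters.

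Ty retrotransposon genes made up 38 of the 114 decreases. Of 90 Ty genes, 49 were tested, 38 called lower and 0 higher (median log2 fold change -2.73), again 38 without *cyc8* replicate 1. *YBL005W-B*, a gag-pol gene, had 14.9, 15.4 and 19.4 CPM in *cyc8*, against 481, 508 and 445 CPM in wt (log2 fold change -4.85 ± 0.16 (SE), adjusted p = 1.5e-06), and *YDR365W-B* had 7.52, 5.24 and 4.95 CPM in *cyc8*, against 112, 109 and 115 CPM in wt. The groups lay far apart in both. All 90 genes are repeated in the genome, and both of these overlap a gag gene on the same strand, so the values describe the family and not single elements. The study's methods describe counting reads that hit a single gene, and how reads matching several copies were treated is not given in the sources used here.

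Other decreases fell outside the lists and were picked with their values in view. *IMD2*, an IMP dehydrogenase gene of guanine nucleotide synthesis, had 6.08, 7.77 and 11.7 CPM in *cyc8*, against 78.95, 86.3 and 49.1 CPM in wt (log2 fold change -3.07 ± 0.30 (SE), adjusted p = 0.0002), and 49.8% of its sequence is repeated elsewhere in the genome. *ARO9*, an aromatic aminotransferase gene, gave -2.98, the endonuclease gene *HO* -2.10, and the flavohaemoglobin gene *YHB1* -1.58. *SNF1*, the kinase of glucose de-repression, was called lower at -1.02 in 2 of the 6 leave-one-out fits.

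Few genes of protein synthesis were called. Of 138 cytosolic ribosomal protein genes, 1 was called higher and 0 lower (median -0.10), the 1 being *RPS28A* (1.14). Ribosome biogenesis gave 0 of 107 called, with a median of -0.40 that became -0.54 without wt replicate 3. RNA polymerase I gave 0 of 8 and mitochondrial ribosomal proteins 0 of 70 (median -0.40). The last list gave 6 lower without *cyc8* replicate 1, with a median of -0.64. Scaled by total counts alone, 8 ribosome biogenesis genes and 9 mitochondrial ribosomal protein genes were lower. The list of small nucleolar RNAs gave 9 of 73 higher, 12.3% against 12.5% of all genes, and 19 without *cyc8* replicate 1. The 9 include *snR19*, a spliceosomal RNA gene.

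Of the smaller lists, the subtelomeric *COS* family gave 2 of 11 higher, *COS4* and *COS1* (5.67 and 1.24), and the aryl-alcohol dehydrogenases 1 of 5, *AAD10* (2.07), or 0 without wt replicate 3. These shares, 18.2% and 20%, stand beside 12.5% of all tested genes and rest on few members. Among lists added after the values were seen, 2 of 4 water channel genes were called higher, led by *AQY1* with 107, 172 and 159 CPM in *cyc8*, against 2.52, 2.33 and 1.87 CPM in wt. So were 5 of 10 genes for vacuolar proteases and their inhibitors, led by *PRB1* (2.70), and *UBI4* (2.42) and *UBC5* (1.19) among 4 ubiquitin and proteasome genes.

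Leaving out *cyc8* replicate 1 gave 212 decreases, against 114 with it. In both fits 720 genes were called higher and 109 lower. Without the library, 105 further genes were higher and 103 further genes lower, while 24 and 5 calls were lost. Of the 272 genes in which replicate 1 lay over 2-fold from its replicates, 195 were below them and 77 above, and in 241 it lay on the wt side of its replicates, in some cases past wt. The genes called higher in both fits had a median log2 difference from wt of 1.77 in replicate 1, against 2.14 and 2.10 in replicates 2 and 3. Those called lower in both had -2.03, against -2.06 and -1.99. For the genes lower only without replicate 1, the medians were -0.39 in replicate 1 and -1.12 and -1.14 in its replicates. A difference in the state of that culture and a difference of its library cannot be told apart.

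The genes in which replicate 1 lay lowest were *YMR244W*, *NCA3*, *ZPS1*, *YDR034W-B*, *DAK2*, *IZH4*, *OLE1* and *YLL066C*. *NCA3* had 58.3, 476 and 538 CPM in *cyc8*, against 10.8, 10.9 and 10.5 CPM in wt, so replicate 1 lay far below its replicates and still above wt. *IZH4* had 10.2, 69.1 and 76.2 CPM in *cyc8*, against 44.02, 46.9 and 23.1 CPM in wt, where replicate 1 lay below every wt library and replicates 2 and 3 above. Highest in replicate 1 were *PAU5*, *PAU19*, *FIT2*, *YCL001W-A*, *YHR050W-A*, *HSP82*, *CHO2* and *YMR242W-A*. Some genes in these 2 sets had few counts in *cyc8*, among them *YLL066C* (3, 19 and 21), *YCL001W-A* (19, 1 and 6) and *YMR242W-A* (24, 10 and 3). The iron-related cell wall gene *FIT2* had 2255, 508 and 474 CPM in *cyc8*, against 461, 494 and 95.9 CPM in wt and was not called in either fit. The genes lower only without replicate 1 included *CLB2*, the main mitotic cyclin gene, with 45.9, 19.1 and 18.99 CPM in *cyc8*, against 78.9, 84.99 and 53.8 CPM in wt (-1.94 without replicate 1, adjusted p = 0.00044; -1.37 with it, adjusted p = 0.021). Also among them were *AIM20*, *SSA2*, *IMH1*, *RNY1*, *PET117*, *INP54* and *YHR022C-A*. The largest increases called only without it were in *YGL260W*, *YPL152W-A*, *RNP1*, *YJL045W*, *YGP1*, *BIO5* and the tRNA genes *tX(XXX)L* and *tG(GCC)P2*, of which *YGL260W*, *YPL152W-A* and the tRNA genes had too few counts to be tested with all libraries. *YGP1*, a stress-induced secreted glycoprotein gene, had 67.5, 350.2 and 378 CPM in *cyc8*, against 61.5, 65.7 and 86.6 CPM in wt, where replicate 1 lay among the wt libraries. A pair of lists made after these values were seen followed *CLB2* and *IMH1*. Both genes are counted among the members, so the counts are not separate from the calls that prompted the lists. Genes of mitotic exit and daughter cell separation gave 0 of 22 lower with all libraries and 10 without replicate 1 (medians -0.64 and -0.94). Genes of Golgi and exocyst tethering gave 1 of 18, *VPS54*, and 9 (medians -0.72 and -1.01).

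**Figure D4:**
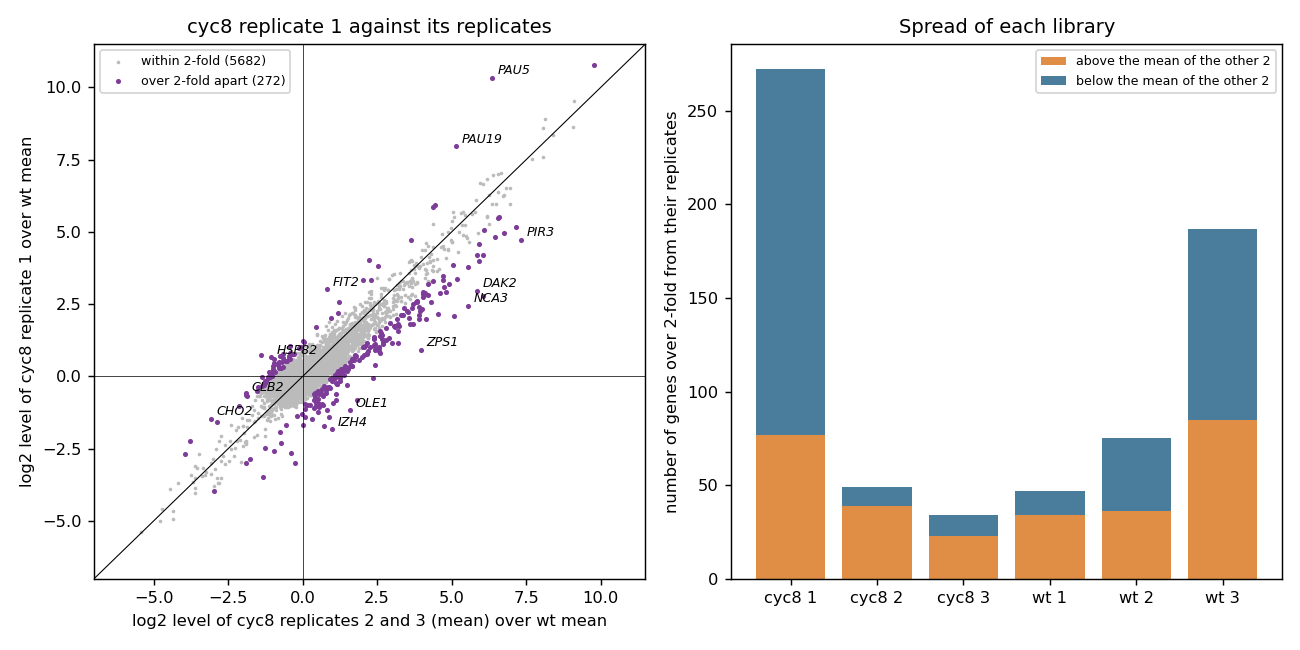
Left, log2 level of *cyc8* replicate 1 over the wt mean (y axis) against that of the mean of *cyc8* replicates 2 and 3 (x axis), with the 272 genes over 2-fold apart in purple and the line of equality. Right, the number of genes in each library more than 2-fold above or below the mean of its 2 replicates, which is 272 in *cyc8* replicate 1 and 187 in wt replicate 3, against 34 to 75 in the others.

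Some of the calls named above rest on few of the 6 fits that each left out 1 library. Among those called in 1 of them were *MIG3*, *PXA1*, *POX1*, *HXK1*, *BDH2*, *BIO2*, *ZPS1*, *CHO2*, *INO1*, *PRM7*, *PCL1*, *AAD10*, *UBC5* and *YDR034W-B*. Called in 2 were *FAA2*, *GAS2*, *HIS3*, *FRE1*, *SUR1*, *HTA2*, *PHO11*, *SNF1* and *YHR050W-A*, and in 3 *HXT7*, *MTH1*, *PAU5*, *MEP3*, *STE3*, *FUS2*, *YMR244W*, *NCA3* and *PAU19*.

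Increases were more frequent near chromosome ends. Of the genes with a position, 266 tested genes lay within 25 kb of a chromosome end, and 42.1% of them were called higher, against 11.2% of the 5606 genes farther in. Seen the other way, 15.2% of the genes called higher lay within 25 kb, against 8.85% of those called lower and 4.53% of all tested genes. By distance, 41.0% of genes within 10 kb were called higher, 42.6% from 10 to 25 kb, 18.1% from 25 to 40 kb, 10.4% from 40 to 100 kb and 11.0% beyond 100 kb. Called genes within 10 kb also moved further, with a median log2 fold change of 3.64 among those called higher, against 1.84 beyond 100 kb. Among genes with at most 10% repeated sequence, 28.6% of 154 genes within 25 kb were called higher, against 11.1% of 5389 farther in.

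**Figure D5:**
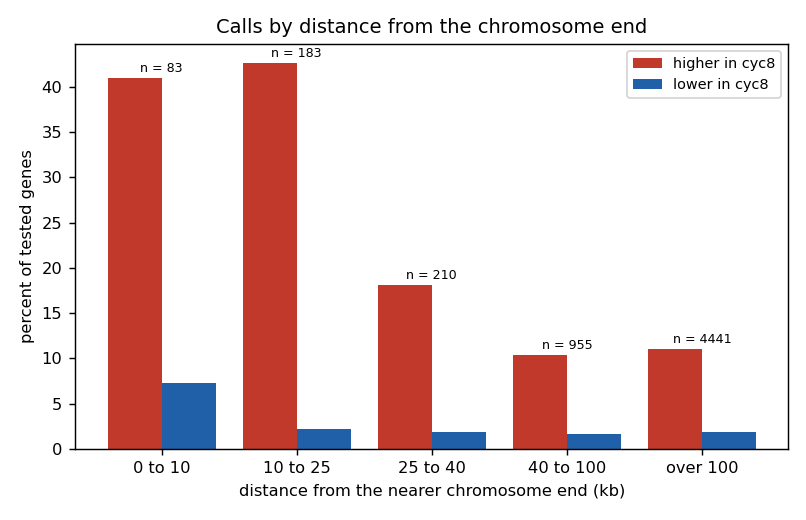
Percent of tested genes called higher (red, left) and lower (blue, right) in *cyc8* by distance from the nearer chromosome end in kb, with the number tested above each pair. Genes within 25 kb were called higher in 42.1% of cases and genes beyond 100 kb in 11.0%.

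Of the remaining promoter motifs, the TATA box TATAAA occurred in 54.2% of the promoters of genes called higher, 68.1% of those called lower and 45.3% of all tested promoters. Without the Ty genes, whose promoters are copies of one another, the share among genes called lower was 53.3%. GATGAG, the motif known as PAC from ribosome biogenesis promoters, occurred in 14.5% of promoters of genes called higher, 30.1% of those called lower (17.3% without the Ty genes) and 20.1% of all. The motifs of Gcn4 (TGACTC), Yap1 (TTACTAA), Aft1 (TGCACCC) and Rap1 (ACACCCA) occurred in 7.99%, 6.23%, 1.63% and 2.30% of promoters of genes called higher, against 8.12%, 7.56%, 1.31% and 2.33% of all tested promoters. A match is a description of these letters in this window and not a bound site.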

How the data were processed

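RNA from 3 *cyc8* and 3 wt cultures, labelled as biological replicates, was analysed from the table of raw counts of whole reads per gene that the authors deposited. The submitters' processing notes name Trimmomatic 0.36, STAR 2.5.2b, featureCounts (Subread 1.5.2) and DESeq2, and the study's methods give the S288c genome and counting of reads that hit a single gene. The strand setting of the counting is not given in the sources used here. The deposited normalized tables, and the other 6 libraries in all but 1 alternative, were not used. Rows without a gene name held 0.124 to 0.217% of counts in *cyc8* and 0.117 to 0.134% in wt and were left out.

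Counts were tested with edgeR 4.0.16 (R 4.3.3, limma 3.58.1; filterByExpr, TMM scaling, quasi-likelihood F test, group as the only term), with Benjamini-Hochberg adjustment over all tested genes. The script was tested on simulated data. DESeq2 1.42.0, other scalings, filters and thresholds, all 12 libraries, a replicate block and leaving out each library were the alternatives. Named genes were *CYC8*, *TUP1* and the marker genes, up to 4 called members of each list in each direction with members needed to show which did not pass, the 12 largest increases and decreases called in every leave-one-out fit, the 8 genes in each direction in which *cyc8* replicate 1 lay farthest from its replicates, and the 8 largest calls in each direction made only without it. Others are genes chosen after their values were seen. A withheld gene is not reported here. The members and lists were chosen with earlier results of these data known. Promoter windows and positions came from the S288c R64 annotation, to which 6162 of 6400 names matched. A sequence was called repeated from shared stretches of 31 bases. Python 3.11.15, numpy 2.4.6, pandas 2.3.3, scipy 1.17.1 and matplotlib 3.10.9 were used. Counting intervals and floors cover counting error only.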

Additional observations from a re-analysis of the deposited data

How the results depend on the processing

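Over 15 other settings of the fit, none of the 228 named genes reversed direction where called in that setting or in the fit used above. Some uncalled named genes did change sign, such as *HSP82*, at -0.46 in the fit used above and up to 0.31 with 1 library left out. Of the 228, 143 kept their side of the limits in every setting. Testing against a 2-fold change (glmTreat) left 398 genes higher and 61 lower and reduced the lists with 50% or more of their tested members higher to 6, against 13, where lists added after the values were seen are not counted. The lists that were counted had also been chosen with earlier results of these data known. Scaling by library size alone gave 577 higher and 367 lower, in a fit where the median of all genes moved to -0.381. Leaving out 1 library gave 570 to 825 genes higher and 88 to 212 lower. The 212 came without *cyc8* replicate 1, where the promoters of genes called lower held a TATA box in 59.0% and PAC in 18.1%, against 68.1% and 30.1%. DESeq2 gave 809 higher and 125 lower. The genes of *cyc8* replicate 1 apart from its replicates numbered 75 at a log2 deviation of 1.5, against 272. At a limit of 40 kb, 20.3% of the genes called higher lay near a chromosome end, against 15.2% at 25 kb. Replicate numbers gave no sign of pairing. The deviations of same-numbered *cyc8* and wt libraries correlated at -0.134, -0.0388 and -0.105, and those of different-numbered libraries at -0.0929 to 0.195. With 3 libraries a group, these values cannot show that the cultures were unpaired. A replicate block gave 713 higher and 110 lower. With 3 libraries a group, genes of few counts were left untested, and a difference there was not detectable at this depth.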
